A study of Mus musculus with 30 samples.

Results

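Liver RNA of 5 mice that had received carbon black nanoparticles, animals 212 to 216, was compared with that of 5 control mice, animals 595, 596, 598, 599 and 600. These are 10 of the 30 arrays of the series, chosen by the animal numbers in the labels, and all genes on the array were considered. All 30 mice were female C57BL/6 mice acquired at 5 to 6 weeks of age, with no genetic change named in the labels. The exposed mice were instilled through the trachea with Printex 90, a nanoparticulate carbon black, at 0.162 mg per mouse, suspended in saline with 10% acellular lung lavage fluid of the same strain. The control treatment is labelled only as none, so it is not stated whether control mice received the vehicle. Each mouse had 1 array, on which its liver RNA carried Cy5 and a commercial mouse reference RNA carried Cy3, and no dye was swapped. Animal numbers fall into 3 runs within each treatment, and the sources used here do not say what a run is, when its livers were taken, or which control run belongs to which exposed run. The other runs are exposed 176 to 180 (4 arrays) with controls 547 to 552 (6 arrays), and exposed 193 to 197 (5 arrays) with controls 570 to 575 (5 arrays). The pairing of runs here follows the order of the numbers.

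Inhaled or instilled particles first meet the lung, and the liver can respond through signals carried in blood. The liver makes the acute phase proteins, and its metabolism of lipids, bile acids and drugs follows feeding and the time of day. Much of that daily rhythm is kept by a transcriptional loop. Arntl (BMAL1) and Clock activate the Per, Cry and Nr1d genes and the output factors Dbp, Tef and Hlf through E-box sequences. The Per and Cry proteins then repress that activation, and Nr1d1 and Nr1d2 repress Arntl, so both arms of the loop peak at opposite times of day. Interferon-stimulated genes, the unfolded protein response of the endoplasmic reticulum and cholesterol synthesis are other programmes with well-known sets of target genes in liver.

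Each value is the log2 ratio of liver to reference RNA, and differences are exposed minus control on that scale, with the SE of the limma fit after the sign ±. Group means carry an SD instead. Probes had to be well above background in Cy5 on 5 or more of the 10 arrays to be tested, which left 23406 of 41174 probes and 12111 named genes. Cy5 was well above background for between 45.1% and 69.1% of probes on each of the 10 arrays, with means of 60.5% ± 6.63 (SD, n = 5) in exposed and 53.8% ± 6.22 (SD, n = 5) in control mice (two-sided exact permutation test, p = 0.151, adjusted over 4 quality measures 0.302; the design allows no p below 0.00794). Pairs of the 10 arrays correlated between 0.968 and 0.991. All 8 measured hepatocyte markers were well above background on all 10 arrays. The exposed animals 212, 213, 214 and 216 shared a slide with the controls 599, 600, 595 and 598, in that order, while exposed 215 and control 596 had no partner. On every slide these exposed mice lay in position 4 and these controls in position 2, so array position and exposure cannot be told apart.

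Slc16a6 fell and Tbc1d10a rose in the livers of the exposed mice, and no other gene passed the adjusted test. These 2 were all that passed of 23406 probes (0.00854%), 1 in each direction (0.00427%). Slc16a6 (NM_134038) encodes a monocarboxylate transporter known for the export of ketone bodies from hepatocytes. Its log2 ratio was -0.92, -1.31, -1.04, -0.82 and -0.39 in exposed animals 212, 213, 214, 215 and 216, and 0.01, -0.11, 0.17, 0.27 and 0.23 in control animals 595, 596, 598, 599 and 600. Every exposed mouse lay below every control mouse, with exposed 216 the closest to the controls. By limma the log2 ratio fell by 1.03 (SE 0.16), which is 2.04-fold, with an adjusted p of 0.00871, and it was lower in exposed mice on 4 of 4 shared slides, with differences of -1.54 to -0.56.

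Tbc1d10a (NM_134023) encodes a GTPase-activating protein of Rab proteins, which direct vesicle traffic. Its log2 ratio was 0.40, 0.30, 0.29, 0.18 and 0.00 in exposed animals 212 to 216 and -0.24, -0.31, -0.23, -0.70 and -0.42 in controls 595, 596, 598, 599 and 600. The groups did not overlap here either, and control 599 was the lowest of all. The gene rose by 0.63 ± 0.10 (1.54-fold; limma adjusted p = 0.0212) and was higher on 4 of 4 shared slides. The call for Slc16a6 held under 16 of 24 alternatives and ended, at adjusted p values of 0.0938, 0.0676, 0.0862 and 0.0584, without exposed 213, exposed 214, control 599 or control 600, with the difference between -1.16 and -0.91 whichever animal was left out. It also ended with no slide block (0.0506), with median centring in place of loess (0.328), without the arrays of the older scanner software (0.0828) and on the 4 shared slides alone (0.0880). That for Tbc1d10a held under 13 of 24 and ended without exposed 212, 213, 214 or 215 or controls 599 or 600 (adjusted p from 0.0584 to 0.192), with the difference between 0.53 and 0.69. It ended too with slide as a fixed block (0.0886), on the 4 shared slides alone (0.146), with no slide block (0.0506), with median centring (0.529) and without the older software (0.0828).

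**Figure D1:**
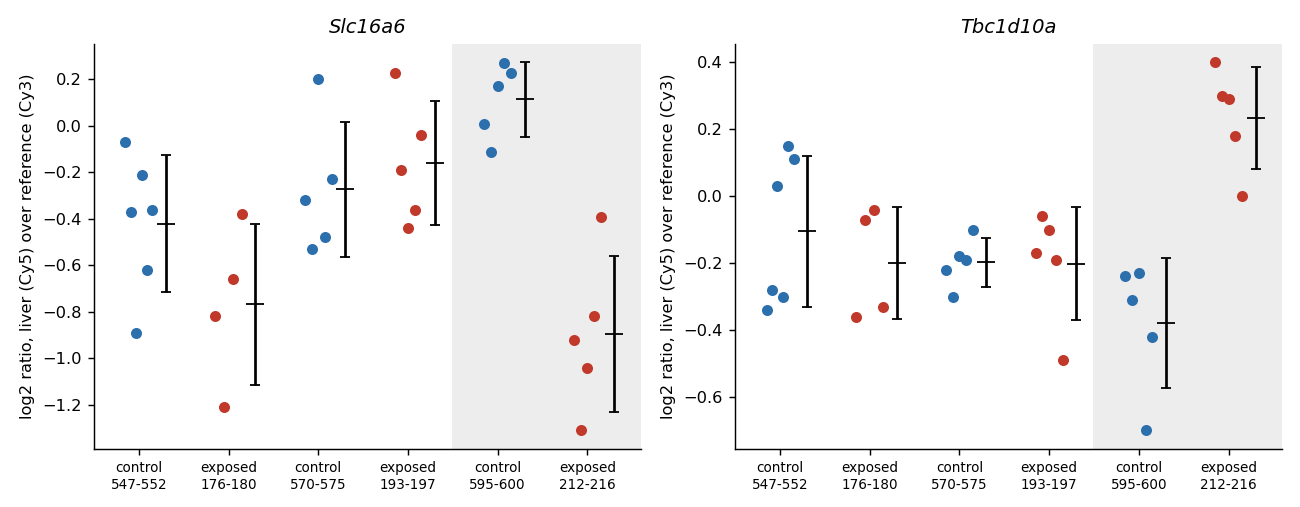
Log2 ratio of liver RNA (Cy5) over reference RNA (Cy3) of Slc16a6 (left) and Tbc1d10a (right) in every animal, controls in blue and exposed mice in red, with the mean and SD of each group beside the points. In the shaded pair of groups Slc16a6 is lower in all 5 exposed mice and Tbc1d10a is higher, and the other 2 pairs overlap for both genes.

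In the other runs the same genes overlapped between treatments. The Slc16a6 difference was -0.36 ± 0.16 between exposed 176 to 180 and controls 547 to 552 and 0.09 ± 0.16 between exposed 193 to 197 and controls 570 to 575. That of Tbc1d10a was -0.08 ± 0.11 and 0.01 ± 0.10. The test of the difference between runs did not pass for either gene. For Slc16a6 it gave -0.67 ± 0.22 (adjusted p = 0.513) against the first of these pairs and -1.12 ± 0.22 (adjusted p = 0.227) against the second. For Tbc1d10a it gave 0.70 ± 0.15 (adjusted p = 0.227) and 0.62 ± 0.15 (adjusted p = 0.444). Control means of Slc16a6 were -0.42 ± 0.30 (SD, n = 6), -0.27 ± 0.29 (SD, n = 5) and 0.11 ± 0.16 (SD, n = 5) in the order of the runs, so the controls of animals 212 to 216 stood highest. Exposed means were -0.77 ± 0.35 (SD, n = 4), -0.16 ± 0.27 (SD, n = 5) and -0.90 ± 0.34 (SD, n = 5).

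With an unadjusted p under 0.05, 2405 probes (10.3%) differed, 1454 (6.21%) higher and 951 (4.06%) lower in exposed mice. Among named genes 677 (5.59%) were higher and 562 (4.64%) lower at that level, and those shares are the background for the gene groups described here. The exposed and control mice did not overlap for 149 named genes on the higher side (1.23%) and 104 on the lower side (0.859%). Over all tested probes those shares were 1.21% and 0.769%. The smallest p among genes that did not pass belonged to Tmem45a, a membrane protein, at -0.52 ± 0.10 (adjusted p = 0.0834), and Pcsk4, a proprotein convertase, at 0.54 ± 0.11 (adjusted p = 0.0956). Tmem263 stood at -0.37 ± 0.07 (adjusted p = 0.0956). C2cd4b was well above background on 1 of 5 exposed and 4 of 5 control arrays. Its difference of -1.0 ± 0.20 (adjusted p = 0.0991) ran from -0.69 with no background correction to -3.24 with processed signals, with controls 598, 599 and 600 at 1.48, 1.29 and 1.91 and every other animal between -0.09 and 0.30.

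The unadjusted differences were also counted within gene lists for pathways, stress responses and cell types. Of the lists with at least 7 tested members, the repressing arm of the clock held the largest share of higher members and the interferon response the largest share of lower members.

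**Figure D2:**
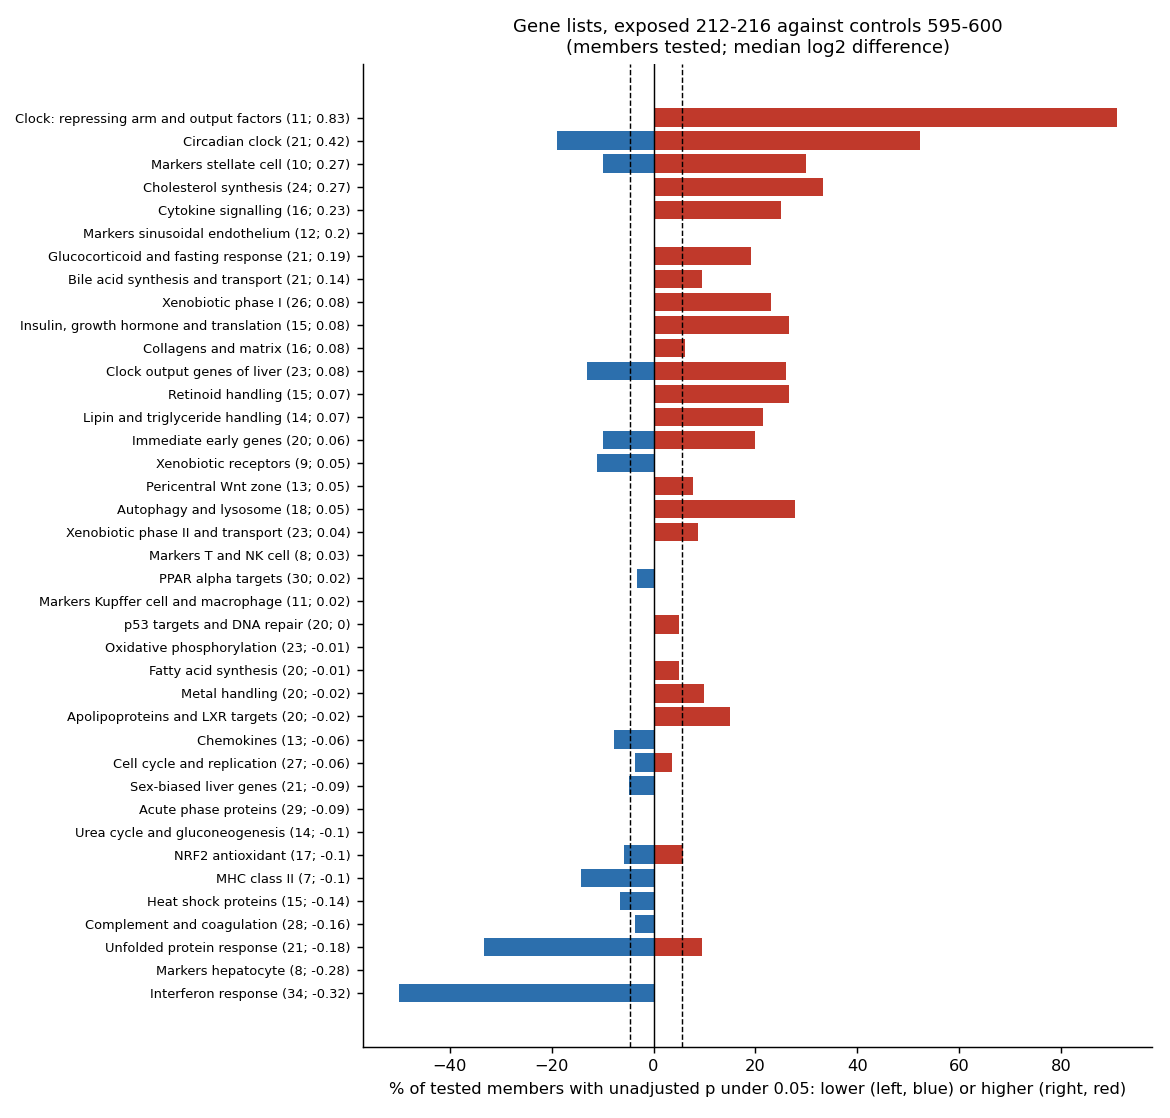
Share of tested members of each gene list with an unadjusted p under 0.05, lower in exposed mice to the left in blue and higher to the right in red, ordered by the median log2 difference; the number of tested members and that median stand beside each name, and lists with fewer than 7 tested members are not drawn. Dashed lines mark the shares over all 12111 named genes (4.64% lower, 5.59% higher). In the repressing arm of the clock 10 of 11 members lie to the right, and in the interferon response 17 of 34 lie to the left.

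Clock genes listed here as the repressing arm and output factors were higher in the exposed mice. Arntl and Nfil3, listed with the opposite arm, were lower. No clock gene passed the adjusted test in the main fit of all 30 arrays. Of 11 tested members of the repressing arm and its output factors, 10 were higher at an unadjusted p under 0.05, all 11 differences were positive and the median was 0.83, against 0.00 over all named genes. Of the 9 that were well above background on all 10 arrays, 8 were higher. The 5 tested genes called the activating arm here were Arntl, Clock and Rora, with the repressors Nfil3 and Cry1 placed beside them. Cry1 is thus not among the 11 above. Of these 5 genes, 4 were lower, none higher, and the median was -0.38. The RefSeq promoter windows (GRCm38.p6, 300 bases around a start) of several of these genes hold the elements that the loop acts through. They are printed 5′ to 3′ on the gene's strand, with the element in capitals. Ciart (chr3:95882179-95882478, minus strand), Tef (chr15:81802423-81802722, plus strand) and Per1 (chr11:69098699-69098998, plus strand) show the E-box CACGTG, Per3 (chr4:151044616-151044915, minus strand) shows the D-box TTATGTAA bound by Dbp and Tef, and Arntl (chr7:113207261-113207560, plus strand) shows the RORE through which Nr1d and Ror proteins act.
Ciart: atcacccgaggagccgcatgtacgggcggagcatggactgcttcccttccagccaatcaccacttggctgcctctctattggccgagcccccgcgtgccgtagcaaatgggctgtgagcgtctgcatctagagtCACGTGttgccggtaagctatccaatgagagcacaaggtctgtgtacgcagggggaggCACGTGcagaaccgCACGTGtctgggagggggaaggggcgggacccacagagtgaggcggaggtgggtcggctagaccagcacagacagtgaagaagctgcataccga
Tef: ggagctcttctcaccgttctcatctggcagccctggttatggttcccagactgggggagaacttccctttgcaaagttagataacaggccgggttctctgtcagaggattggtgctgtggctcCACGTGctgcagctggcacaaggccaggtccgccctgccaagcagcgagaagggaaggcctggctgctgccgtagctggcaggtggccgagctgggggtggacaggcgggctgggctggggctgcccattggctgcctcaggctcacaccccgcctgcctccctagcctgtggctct
Per1: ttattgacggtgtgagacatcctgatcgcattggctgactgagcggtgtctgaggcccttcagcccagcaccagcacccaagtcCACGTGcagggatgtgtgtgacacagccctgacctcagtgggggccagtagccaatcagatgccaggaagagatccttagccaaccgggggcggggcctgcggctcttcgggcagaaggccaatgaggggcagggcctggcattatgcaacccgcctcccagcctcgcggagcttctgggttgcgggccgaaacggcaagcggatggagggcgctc
Per3: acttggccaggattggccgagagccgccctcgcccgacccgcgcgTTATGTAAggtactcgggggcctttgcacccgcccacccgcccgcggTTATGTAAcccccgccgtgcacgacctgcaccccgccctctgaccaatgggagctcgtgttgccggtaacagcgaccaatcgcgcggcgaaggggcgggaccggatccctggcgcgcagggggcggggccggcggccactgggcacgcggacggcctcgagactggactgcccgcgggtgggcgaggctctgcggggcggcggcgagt
Arntl: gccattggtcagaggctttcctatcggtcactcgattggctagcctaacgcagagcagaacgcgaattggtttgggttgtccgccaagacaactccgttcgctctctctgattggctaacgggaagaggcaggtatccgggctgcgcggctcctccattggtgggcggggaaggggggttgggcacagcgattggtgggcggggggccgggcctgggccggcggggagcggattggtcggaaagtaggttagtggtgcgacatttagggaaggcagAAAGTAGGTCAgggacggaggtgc

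Both strands were searched for CACGTG (E-box), TTATGTAA and TTACGTAA (D-box) and the RORE, and no match of one kind overlapped another in the windows printed. Bhlhe40 and Per2 have no entry in the promoter table. Of 32851 RefSeq promoters of 300 bases, 7.15% hold the E-box, 1.06% the D-box and 0.384% the RORE. Of the 9 tested repressing-arm genes with a promoter in the table, 3 hold the E-box (Ciart with 3 copies, Per1 and Tef) and 1 the D-box (Per3, with 2 copies). Of 5 such genes of the activating arm, Arntl holds the RORE and Cry1 the E-box. Such a match describes the letters in these windows and shows no binding in these livers.

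Among the output factors, Dbp, a PAR-domain transcription factor with one of the strongest rhythms in liver, differed most. Its log2 ratio was 1.14, 0.92, 1.35, 0.96 and -0.49 in exposed animals 212 to 216 and -0.08, -1.60, -1.37, -2.18 and -2.35 in controls 595, 596, 598, 599 and 600. Exposed 216 stood apart from the other 4 exposed mice and lay below control 595, so the groups overlapped. The difference was 2.28 ± 0.54 (4.84-fold; adjusted p = 0.138). Tef, of the same family, was at 1.27, 1.11, 1.62, 1.57 and 0.17 in the exposed mice and 0.38, -0.35, -0.31, -0.67 and -1.11 in the controls. Again exposed 216 lay among the controls and control 595 was the highest control. The difference was 1.55 ± 0.31 (adjusted p = 0.0956), and 2 other Tef probes gave 0.52 and 0.28. Hlf, the third member, stood at 0.79 ± 0.26, with control 598 at 0.73 and the other controls between 2.42 and 2.87. Without control 598 the difference was 0.41, and with processed signals it was 0.08.

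The nuclear receptors that repress Arntl were both higher. Nr1d1 (REV-ERB alpha) was at 1.99, 2.12, 1.66, 1.47 and 1.61 in the exposed mice and 1.24, 1.30, 1.03, 0.69 and 0.56 in the controls. Every exposed mouse lay above every control, and the difference was 0.83 ± 0.28 (adjusted p = 0.284), while its other probes gave 0.41 and 0.08. Nr1d2 stood at 1.18 ± 0.28 (adjusted p = 0.138). Of the period genes, Per1 stood at 1.07 ± 0.37, Per3 at 0.65 ± 0.17 and Per2 at 0.71 ± 0.38, the last with an unadjusted p above 0.05. The other Per2 probe gave 0.20, and the Per3 difference ran from 0.45 to 2.78 over 23 alternatives. Cry2, a repressor with the Per proteins, stood at 0.42 ± 0.12, and Ciart, a repressor of Arntl and Clock, at 1.24 ± 0.34. Ciart was well above background on 5 exposed but only 1 control array, and its difference ran from 0.92 with no background correction to 3.31 with processed signals. Bhlhe40, which competes for E-boxes, stood at 0.73 ± 0.25 with no overlap between the groups.

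On the activating side, Arntl was at -0.28, 0.08, -1.0, -0.47 and 0.59 in the exposed mice and 0.73, 1.11, 1.14, 1.54 and 1.70 in the controls. The groups did not overlap, and exposed 216 and control 595 were nearest to each other. The difference was -1.45 ± 0.38 (2.73-fold; adjusted p = 0.158), lower on 4 of 4 shared slides. Nfil3 (E4BP4), a repressor of D-box genes, was at -0.54, -0.22, -0.38, -0.40 and 0.62 in the exposed mice and 0.10, 1.31, 1.34, 0.91 and 1.16 in the controls, with exposed 216 above control 595. It stood at -1.14 ± 0.32 (adjusted p = 0.172), and its second probe gave -1.11. Clock stood at -0.29 ± 0.11, whereas the Arntl activator Rora stood at -0.02 ± 0.10. Cry1, which like Cry2 is a repressor, stood at -0.38 ± 0.17.

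**Figure D3:**
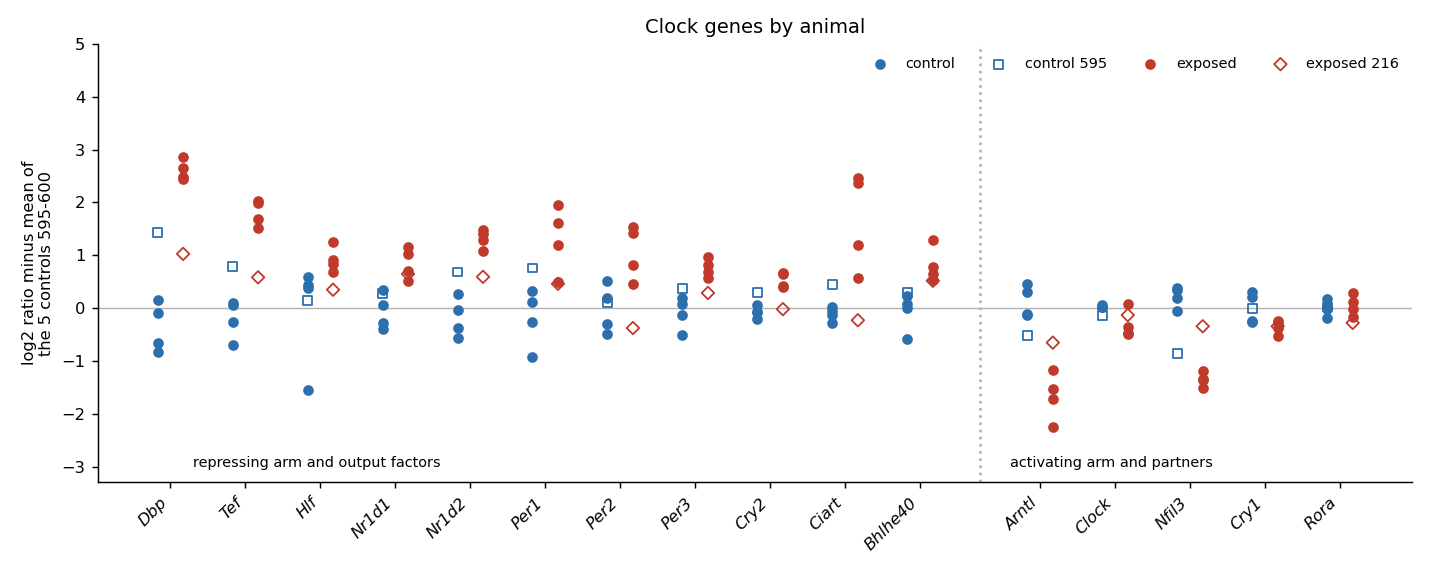
Log2 ratio of 16 clock genes in each animal, shown as the difference from the mean of the 5 controls, with controls in blue and exposed mice in red; open squares mark control 595 and open diamonds exposed 216. For most genes left of the dotted line the filled red points lie above the blue ones, and to its right Arntl and Nfil3 lie lower in exposed mice, with the 2 open symbols between the groups.

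The mean over the 11 repressing-arm genes was 0.93, 1.01, 1.42, 1.27 and 0.27 in exposed animals 212 to 216, and 0.43, -0.22, -0.14, -0.18 and -0.30 in controls 595, 596, 598, 599 and 600. Exposed 216 lay below control 595, and the other 8 mice did not overlap. The mean over the 5 genes called the activating arm here ran the other way, from 0.07 to 0.61 in exposed and from 0.66 to 1.19 in control mice. That mean includes the repressors Nfil3 and Cry1. Without exposed 216 the count of probes past the adjusted threshold went from 2 to 66, and Dbp, Tef, Nr1d2 and Ciart were then among those that rose (adjusted p = 0.0352, 0.00780, 0.0456 and 0.0198). Leaving out control 595 gave 7 probes, Tef among them (adjusted p = 0.0251), and leaving out control 596 gave 5. Without exposed 213, exposed 214, control 599 or control 600 the count was 0 each time. A fit of only the 10 arrays called 129 probes, among them Dbp, Tef, Nr1d1 and Nr1d2 higher and Arntl and Nfil3 lower (adjusted p from 0.0222 to 0.0396). With array weights 155 probes passed, among them Dbp, Tef, Nr1d2, Per3 and Cry2 higher and Arntl and Nfil3 lower (adjusted p from 0.00486 to 0.0491). Of 24 alternatives, Tef passed in 4, Dbp and Nr1d2 in 3 each, Arntl and Nfil3 in 2 each, and Nr1d1 and Cry2 in 1 each. Ciart and Per3 passed in 1 of 23 each. Without exposed 214 the lower members of the activating arm were 2 in place of 4.

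**Figure D4:**
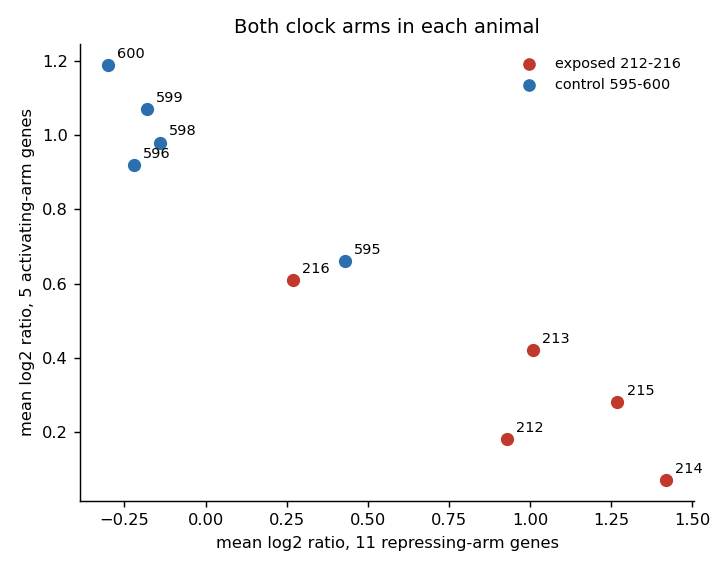
Mean log2 ratio over the 11 repressing-arm genes (horizontal) and the 5 genes called the activating arm (vertical) in each of the 10 animals, exposed in red and control in blue. The latter include the repressors Nfil3 and Cry1. Exposed 212, 213, 214 and 215 lie at the lower right, controls 596, 598, 599 and 600 at the upper left, and exposed 216 and control 595 next to each other between them.

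Against the other controls the repressing arm stood as high. The median difference of exposed 212 to 216 was 0.80 against controls 547 to 552 and 0.75 against controls 570 to 575. Each time 7 of 11 members were higher at an unadjusted p under 0.05, where 6.12% and 7.66% of all probes were. The same exposed mice had a median 0.44 above the other exposed mice, with 4 of 11 higher and none lower (4.84% and 3.56% of all probes were), and their controls had a median 0.31 below the other controls, with 2 of 11 lower (2.38% of all probes were). In exposed 176 to 180 against controls 547 to 552 the median was 0.45, and in exposed 193 to 197 against controls 570 to 575 it was 0.15. No test of the difference between runs passed for a clock gene.

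Genes that follow the clock in liver differed in both directions. Of 23 tested, 6 were higher and 3 lower at an unadjusted p under 0.05, with a median of 0.08. Tns2 (tensin 2) was higher at 0.66 ± 0.16 (adjusted p = 0.138) and Dtx4, a ubiquitin ligase, lower at -0.53 ± 0.14 (adjusted p = 0.158), the latter with no overlap between the groups and with 3 probes between -0.55 and -0.51. Coq10b, a coenzyme Q protein, stood at 1.15 ± 0.31, Rgs16, a regulator of G protein signalling, at 1.28 ± 0.60, Usp2, a deubiquitinase, at 1.17 ± 0.38 and Lonrf3 at -0.73 ± 0.23. Por, the electron donor of cytochrome P450 enzymes, stood at 0.53 ± 0.17. The 5 clock kinases and turnover genes had a median of 0.19, with 1 higher.

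The lipin phosphatases, which make diacylglycerol for triglyceride synthesis and act as nuclear coactivators, stood well above the controls. Lpin2 was at 1.93, 2.16, 2.08, 1.74 and 1.42 in exposed animals 212 to 216 and 1.01, 0.94, 1.22, 0.78 and 1.25 in controls 595, 596, 598, 599 and 600. The groups did not overlap, and the difference was 0.82 ± 0.17 (1.77-fold; adjusted p = 0.0968). Lpin1 was at 4.42, 5.17, 4.41, 4.85 and 2.82 in the exposed mice and 2.41, 2.31, 3.1, 2.39 and 3.16 in the controls. Only exposed 216 lay within the control range. The difference was 1.63 ± 0.43 (3.1-fold; adjusted p = 0.158), and 2 other probes gave 1.57 and 1.64. Dgat1, the final enzyme of triglyceride synthesis, stood at 0.19 ± 0.07 without overlap, and these 3 were the members of 14 that differed, with a list median of 0.07.

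Against the mean of all 3 control runs, a contrast that gives exposed 212 to 216 a wider set of controls, 33 probes passed the adjusted test, 28 higher (0.12%) and 5 lower (0.0214%). Lpin2 rose by 0.87 ± 0.14 and Il6ra, the interleukin-6 receptor, by 0.68 ± 0.14. The fatty acid oxidation gene Cpt1a, which admits long-chain fatty acids to mitochondria, rose by 0.62 ± 0.13 on a probe not used in the gene lists. Its means on that probe were 2.28 in exposed 212 to 216 and 1.78 in controls 595 to 600. The Cpt1a probe of the gene lists stood at 0.18 against controls 595 to 600. The coactivator Ppargc1b rose by 0.80 ± 0.17 and 0.87 ± 0.18 on its 2 probes. Npr2, a natriuretic peptide receptor, rose by 0.44 ± 0.08 and 0.58 ± 0.10, and the sterol enzyme Hsd17b7 by 0.67 ± 0.14. On the first Npr2 probe the control means were 0.54, 0.50 and 0.93 in the order of the runs, against 1.11 in exposed 212 to 216. On the second they were 0.26, 0.16 and 0.63, against 0.95, so controls 595 to 600 stood nearest to these exposed mice. The short-chain dehydrogenases Dhrs1 and Dhrs4 rose by 0.32 ± 0.06 and 0.36 ± 0.08. Slc16a6 fell by 0.70 (SE 0.13; adjusted p = 0.0244), Tmem45a fell by 0.45 and Tbc1d10a rose by 0.48 ± 0.09 (adjusted p = 0.0223).

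Cholesterol synthesis genes stood higher in the exposed mice, without passing the adjusted test. Of 24 tested, 22 differences were positive, 8 were higher at an unadjusted p under 0.05, none lower, and the median was 0.27. Stard4, a sterol carrier, was at 2.25, 2.43, 2.94, 2.44 and 2.41 in the exposed mice and 2.08, 2.24, 2.31, 1.74 and 1.83 in the controls. Exposed 214 was the highest of all, and exposed 212 lay below control 598, so the groups overlapped. The difference was 0.46 ± 0.14 (adjusted p = 0.234), and 2 other probes gave 0.46 and 0.28. Hsd17b7 stood at 0.49 ± 0.17, Msmo1 at 0.54 ± 0.22, Cyp51 at 0.42 ± 0.17, Hmgcs1 at 0.49 ± 0.23 and the regulator Srebf2 at 0.28 ± 0.12, its other probe giving 0.10. Without control 595 only 2 members were higher, without exposed 213, exposed 215 or control 598 it was 3 each time, and without control 599 it was 5. In these fits 4.8% to 5.57% of all probes were higher. The median was 0.12 without control 595 and between 0.22 and 0.27 without each of these others. Without exposed 212 or exposed 214 the count was 6 each time. It was 9 without control 600, 11 without exposed 216 and 12 without control 596, where 7.32%, 6.63% and 6.06% of all probes were higher. Against controls 570 to 575, 14 were higher with a median of 0.40, where 7.66% of all probes were higher. Against controls 547 to 552 4 were higher with 0.27 (6.12% of all probes), and against the mean of the 3 control runs 12 were higher (8.41%). In exposed 176 to 180 against their controls the median was 0.57, with 16 of 24 higher, where 421 of 12111 named genes were. In exposed 193 to 197 against theirs it was 0.07, with 0 of 24 higher, where 575 of 12111 were.

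Interferon-stimulated genes stood lower in the exposed mice. Of 34 tested, 33 differences were negative, 17 were lower at an unadjusted p under 0.05, none higher, and the median was -0.32; the groups did not overlap for 6 of them (Igtp, Irgm1, Oasl1, Zbp1, Rsad2 and Ifit3). None passed the adjusted test. Promoters of Igtp (chr11:58199306-58199605, plus strand), Irgm1 (chr11:48871371-48871670, minus strand) and Ifit3 (chr19:34583279-34583578, plus strand) show in capitals the spaced repeat GAAANNGAAA, or its reverse TTTCNNTTTC, which is the core of the interferon-stimulated response element.
Igtp: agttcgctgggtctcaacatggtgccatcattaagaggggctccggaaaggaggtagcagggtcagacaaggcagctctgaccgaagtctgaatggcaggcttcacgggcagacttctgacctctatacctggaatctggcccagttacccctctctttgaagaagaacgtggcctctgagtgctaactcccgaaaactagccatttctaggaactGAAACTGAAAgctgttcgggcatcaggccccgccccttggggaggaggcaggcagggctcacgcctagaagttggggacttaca
Irgm1: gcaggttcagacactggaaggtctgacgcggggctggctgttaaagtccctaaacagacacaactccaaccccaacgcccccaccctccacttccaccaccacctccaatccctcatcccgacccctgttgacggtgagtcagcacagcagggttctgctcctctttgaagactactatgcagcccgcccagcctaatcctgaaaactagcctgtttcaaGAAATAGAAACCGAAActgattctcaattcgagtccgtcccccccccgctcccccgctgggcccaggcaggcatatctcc
Ifit3: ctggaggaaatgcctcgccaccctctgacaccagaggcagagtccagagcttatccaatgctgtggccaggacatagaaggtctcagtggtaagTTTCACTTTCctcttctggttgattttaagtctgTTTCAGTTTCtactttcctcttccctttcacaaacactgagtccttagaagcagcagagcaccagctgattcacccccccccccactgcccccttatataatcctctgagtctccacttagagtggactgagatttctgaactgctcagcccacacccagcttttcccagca

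Irgm1 holds 2 overlapping copies and Ifit3 2 separate ones. On both strands this repeat occurs in 3.44% of all RefSeq promoters of that length, and in those of 15 of the 25 tested interferon genes found in the table.

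Igtp (IRGM3) and Irgm1 are GTPases that guard membranes against intracellular pathogens. Igtp was at 2.42, 2.16, 2.37, 2.22 and 2.02 in exposed animals 212 to 216 and 2.89, 2.65, 3.06, 2.90 and 2.70 in controls 595, 596, 598, 599 and 600. All exposed mice lay below all controls, and the difference was -0.62 ± 0.14 (adjusted p = 0.111). Irgm1 stood at -0.46 ± 0.11 (adjusted p = 0.138). Rsad2 (viperin), an antiviral enzyme, was at 0.73, 0.44, 0.91, 1.0 and 0.98 in the exposed mice and 1.78, 1.12, 1.84, 1.26 and 1.56 in the controls. The groups were again apart, at -0.70 ± 0.26. Oasl1, a member of the oligoadenylate synthetase family, stood at -0.66 ± 0.16, the nucleic acid sensor Zbp1 at -0.61 ± 0.18 and Ifit3 at -0.48 ± 0.18. Of the signalling factors, Stat2 stood at -0.40 ± 0.15 and Irf9 at -0.24 ± 0.11, the other Irf9 probe giving -0.01. The ubiquitin-like Isg15 stood at -0.38 ± 0.16, the virus tether Bst2 at -0.30 ± 0.13 and the immunoproteasome subunit Psmb8 at -0.28 ± 0.10.

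The level of the controls bears on this group. Controls 595 to 600 stood above the other control runs by a median of 0.25 over the 34 genes, with 16 higher at an unadjusted p under 0.05 and none lower, where 3.17% of all probes were higher. Exposed 212 to 216 had a median of 0.08 against the other exposed mice, with 5 higher and 0 lower (4.84% and 3.56% of all probes were). Igtp had means of 2.26 ± 0.24 (SD, n = 6), 2.54 ± 0.23 (SD, n = 5) and 2.84 ± 0.17 (SD, n = 5) in controls 547 to 552, 570 to 575 and 595 to 600, and 2.24 ± 0.16 (SD, n = 5) in exposed 212 to 216. Against controls 547 to 552 the median of the list in exposed 212 to 216 was 0.05, with 2 lower (4.18% of all probes were). Against controls 570 to 575 it was -0.20, with 6 lower (3.96% of all probes were). The count was 28 in a fit of only the 10 arrays, where 5.88% of all probes were lower, and 26 on the 4 shared slides (5.16%). It was 10 without control 598 (3.35%) and 8 with median centring in place of loess (0.948%). The median stayed between -0.34 and -0.27 in these 4. In exposed 176 to 180 against controls 547 to 552 the median was -0.34, with 22 of 34 lower, where 1277 of 12111 named genes were. In exposed 193 to 197 against controls 570 to 575 it was 0.06, with 0 of 34 lower, where 196 of 12111 were.

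**Figure D5:**
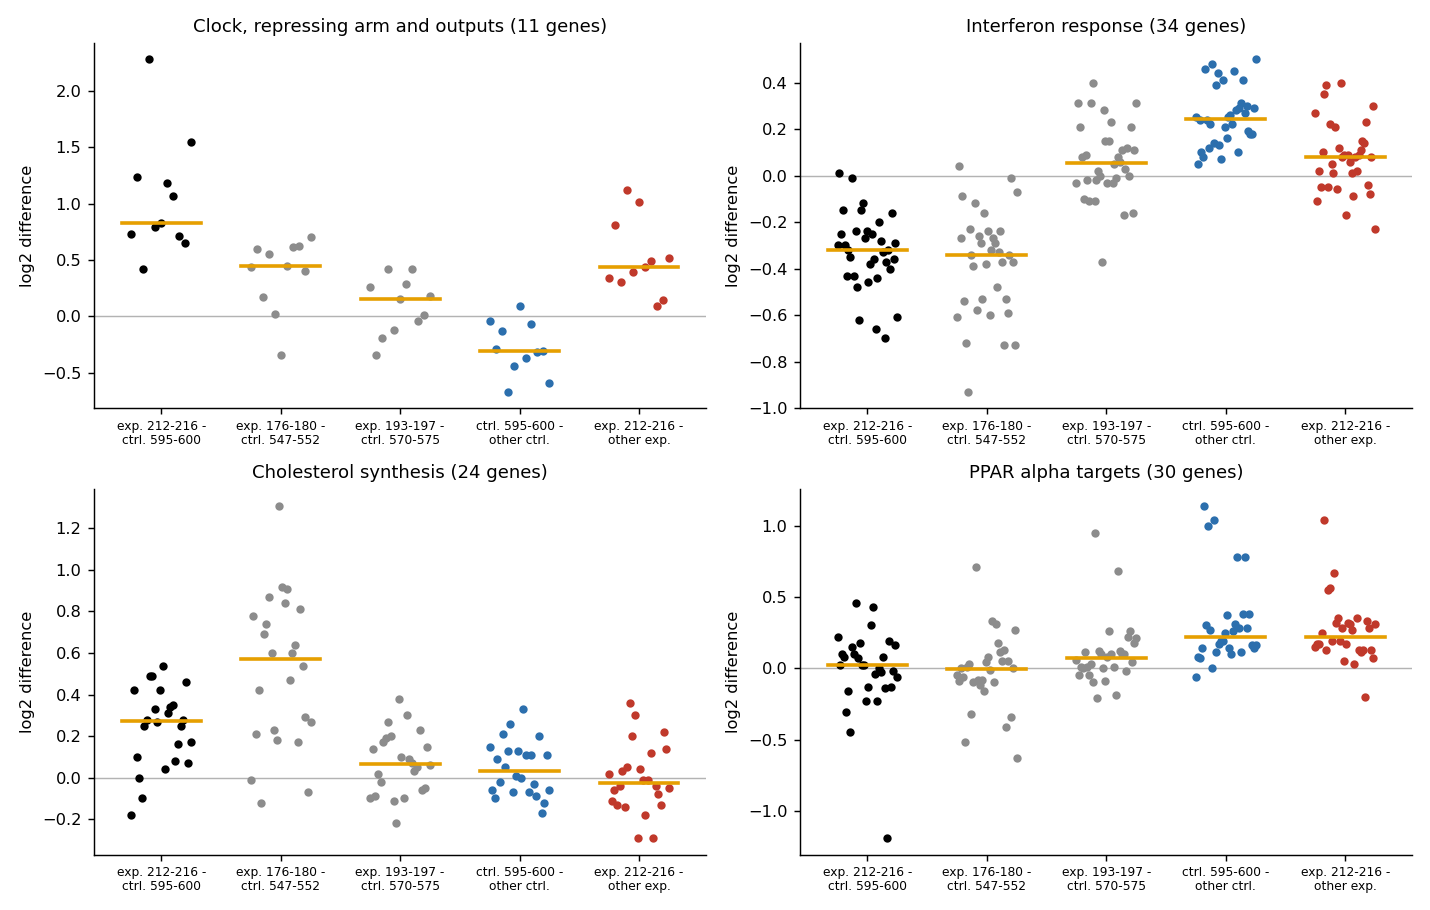
Log2 difference of each member of 4 gene lists (points; yellow bars are medians) in 5 comparisons: each exposed run against the control run of the same order, controls 595 to 600 against the other controls, and exposed 212 to 216 against the other exposed mice. Interferon genes lie below 0 in the first comparison, 33 of 34 of them, and their median is 0.25 in controls 595 to 600 against the other controls; the PPAR alpha targets have medians of 0.22 in both of the last columns.

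Chaperones of the unfolded protein response stood lower while 2 stress-linked members stood higher. Of 21 tested, 7 were lower and 2 higher at an unadjusted p under 0.05, with a median of -0.18. Sdf2l1, an endoplasmic reticulum chaperone cofactor, stood at -0.71 ± 0.20 (adjusted p = 0.181), and Hspa5 (BiP), the main chaperone of that compartment, at -0.58 ± 0.24 with no overlap over the 4 controls that gave a value. Manf stood at -0.61 ± 0.25, Creld2 at -0.82 ± 0.35 and Pdia4 at -0.31 ± 0.14. Herpud1, of protein degradation at that membrane, stood at 0.76 ± 0.29 with no overlap, and Trib3, a pseudokinase induced by nutrient stress, at 0.86 ± 0.30. The count of lower members was 13 on the 4 shared slides, where 5.16% of all probes were lower, and 11 in a fit of only the 10 arrays (5.88%). It was 3 with no slide block and 1 without exposed 214 (3.23% each), and 2 without exposed 216 or controls 598, 599 or 600 (2.74% to 3.96%). The medians lay between -0.23 and -0.14. Against controls 570 to 575 none was lower and the median was -0.05 (3.96% of all probes were lower). Against controls 547 to 552, 7 of 21 were lower with a median of -0.27 (4.18%). Against the mean of the 3 control runs 6 were lower with -0.19 (4.73%). These exposed mice had 6 lower and 2 higher than the other exposed mice, with a median of -0.18. Their controls had 0 lower and 0 higher than the other controls, with a median of 0.08. Of 15 heat shock genes 1 was lower, Hsph1 at -0.60 ± 0.29, and Hspb1 stood at -0.28 ± 0.15 (median -0.14).

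Several regulators of fasting, glucocorticoid and cytokine signalling stood higher. Of 21 glucocorticoid and fasting genes 4 were higher and none lower (median 0.19), among them Klf9, a glucocorticoid target, at 0.92 ± 0.28 and the oestrogen sulphotransferase Sult1e1 at 1.54 ± 0.54. Sult1e1 was at 2.71, 4.03, 2.94, 0.94 and 0.63 in exposed animals 212 to 216 and 0.65, 0.40, 0.72, 0.60 and 1.25 in the controls. Exposed 212, 213 and 214 were high and the other 2 exposed mice lay within the control range. The translation repressor Eif4ebp3 stood at 0.56 ± 0.20 and the coactivator Ppargc1a at 0.53 ± 0.20. Of 16 cytokine signalling genes 4 were higher (median 0.23), Il6ra at 0.76 ± 0.21, the interleukin-1 receptor Il1r1 at 0.47 ± 0.18, the liver transcription factor Cebpb at 0.66 ± 0.29 and the NF-kappa-B inhibitor Nfkbia at 0.44 ± 0.20. Of 15 insulin, growth hormone and translation genes 4 were higher (median 0.08), with Trib1, a pseudokinase that directs degradation of C/EBP alpha, at 0.89 ± 0.20 (adjusted p = 0.129) and Foxo1, which insulin holds out of the nucleus, at 0.42 ± 0.15.

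Of 20 immediate early genes 4 were higher and 2 lower (median 0.06), with Junb at 0.95 ± 0.30, Klf10 at 0.84 ± 0.34 and Jun at 0.68 ± 0.31. Myc, the growth-promoting transcription factor, was at -3.52, -3.64, -3.70, -3.40 and -3.31 in exposed animals 212 to 216 and -3.08, -3.28, -2.98, -3.28 and -2.63 in the controls. Every exposed mouse lay below every control, at -0.47 ± 0.21, while its other probes gave -0.34 and -0.17. Of 18 autophagy and lysosome genes 5 were higher and none lower (median 0.05), with Map1lc3b (LC3B), which coats autophagosomes, at 0.28 ± 0.10, the mitophagy receptor Bnip3 at 0.30 ± 0.12, the initiating kinase Ulk1 at 0.52 ± 0.24, Gabarapl1 at 0.37 ± 0.16 and Wipi1 at 0.38 ± 0.16. The other probes of Map1lc3b and Wipi1 gave 0.10 and 0.19.

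Among transport and detoxification genes single members stood higher. Abcg8, a subunit of the canalicular sterol exporter, was at 3.36, 3.43, 3.01, 3.06 and 2.83 in the exposed mice and 1.77, 1.13, 2.06, 2.29 and 2.70 in the controls. The groups did not overlap, at 1.12 ± 0.28 (adjusted p = 0.138), although its second probe gave 0.39. With Scarb1, the HDL receptor, at 0.31 ± 0.11, it was among 3 of 20 apolipoprotein and LXR target genes that were higher (median -0.02). Of 21 bile acid genes 2 were higher (median 0.14), the FGF coreceptor Klb at 0.80 ± 0.25 and the organic anion transporter Slco1a4 at 0.59 ± 0.26, and Cyp7a1, which catalyses the first step of bile acid synthesis, stood at 0.20 ± 0.61. Of 26 phase I genes 6 were higher and none lower (median 0.08). These were the oxysterol hydroxylase Cyp39a1 at 0.74 ± 0.16 (adjusted p = 0.111), Cyp2c54 at 0.95 ± 0.32, Cyp2c38 at 0.59 ± 0.20 (its other probe 0.28), Cyp2c39 at 0.59 ± 0.23, Cyp2b10, a target of the receptor CAR, at 0.61 ± 0.30, and Por. The Cyp2c genes are close relatives, and their probes may share signal. Of 23 phase II and transport genes 2 were higher (median 0.04), Sult1e1 and the efflux pump Abcb1a at 0.29 ± 0.12. Of 9 xenobiotic receptors and their targets 1 was lower, the quinone reductase Nqo1 at -0.28 ± 0.13, and Nr1i2 (PXR) stood at 0.35 ± 0.23. Of 15 retinoid genes 4 were higher (median 0.07), with Dhrs1 at 0.32 ± 0.08, without overlap, and Dhrs4 at 0.33 ± 0.09.

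Targets of PPAR alpha, the receptor that drives fatty acid oxidation, stood near 0 between the groups. Of 30 PPAR alpha targets none was higher and 1 was lower, the pyruvate dehydrogenase kinase Pdk4 at -1.19 ± 0.43, and the median was 0.02. Acaa1a, a peroxisomal thiolase, stood at 0.22 ± 0.11. Both groups stood above the other runs of their own treatment, however, by a median of 0.22 each. In controls 595 to 600 12 of 30 targets were higher than in the other controls (3.17% of all probes were), and in exposed 212 to 216 8 of 30 were higher than in the other exposed mice (4.84% of all probes were). Acot1, an acyl-CoA thioesterase, had the largest of these differences in both, at 1.14 and 1.04. Of 20 fatty acid synthesis genes 1 was higher, Gpam at 0.50 ± 0.23, and Elovl5 stood at -0.27 ± 0.15 (median -0.01).

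None of the acute phase genes, which the liver induces under inflammatory signals, differed by the unadjusted test. Of 29 tested, 0 were higher and 0 lower at an unadjusted p under 0.05, and the median was -0.09. Saa1 stood at -0.24 ± 0.27, Saa2 at -0.11 ± 0.17 and Saa3 at -0.01 ± 0.53. Lcn2 (lipocalin 2) was at -0.01, 1.64, -0.63, 0.16 and -0.32 in exposed animals 212 to 216 and 0.36, -0.11, 0.00, -0.06 and -0.01 in the controls. Only exposed 213 was high, and the difference was 0.13 ± 0.42. The members of smallest p were Alb at -0.51 ± 0.26 and Crp at 0.65 ± 0.35, the latter with exposed 215 at 3.52 and the other 4 exposed mice between 2.68 and 2.74. The Lcn2 mean was 3.64 ± 0.41 (SD, n = 4) in exposed 176 to 180 and 0.17 ± 0.88 (SD, n = 5) in exposed 212 to 216. Complement and coagulation genes had 0 higher and 1 lower of 28 (median -0.16), the central complement component C3 at -0.37 ± 0.17, whose other probe gave -0.05, and complement factor B (Cfb) stood at -0.33 ± 0.22. Of 13 chemokines 1 was lower, Ccl4 at -0.37 ± 0.12, and Ccl3 stood at -0.25 ± 0.13.

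The remaining lists stood near the background. Cell cycle genes had 1 higher and 1 lower of 27, Tk1 at 0.26 ± 0.11 and Gins3 at -0.24 ± 0.08. Antioxidant targets of NRF2 had 1 of each among 17, the glutathione synthesis subunit Gclm at 0.30 ± 0.11, without overlap, and Nqo1 as above. In 20 metal handling genes 2 were higher, the iron regulator Bmp6 at 0.28 ± 0.11 and the zinc exporter Slc30a1 at 0.28 ± 0.11, with the metallothioneins Mt1 and Mt2 at 0.54 ± 0.38 and 1.12 ± 0.74. One of 20 p53 and DNA repair genes was higher, Trp53inp1 at 0.45 ± 0.21, with Gadd45a at 0.35 ± 0.18. Among 16 collagen and matrix genes Timp3 was higher at 0.29 ± 0.09 and Col5a2 stood at -0.24 ± 0.16. Among 13 pericentral genes of the Wnt zone Znrf3 was higher at 0.29 ± 0.12 and Sp5 stood at 0.42 ± 0.23. In the 21 sex-biased genes A1bg, female-biased in mouse liver, was lower at -1.43 ± 0.51 with no overlap between the groups, and Cyp2d9 stood at -0.32 ± 0.18. Oxidative phosphorylation had 0 of 23 in either direction (Cox6c at 0.15 ± 0.11, Ndufa5 at 0.12 ± 0.09), and urea cycle and gluconeogenesis 0 of 14 (Fbp1 at -0.34 ± 0.24, Arg1 at -0.25 ± 0.21). Of 7 MHC class II genes H2-DMb1 was lower at -0.32 ± 0.15 and Cd74 stood at -0.16 ± 0.17.

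Markers of other liver cells were measured beside these groups. In bulk liver RNA fewer cells of a type and less RNA per cell cannot be told apart. Stellate cell markers had 3 of 10 higher and 1 lower with a median of 0.27, Dcn at 0.54 ± 0.14, Hand2 at 0.39 ± 0.14, the retinol acyltransferase Lrat at 0.72 ± 0.30 and the receptor Pdgfrb at -0.32 ± 0.13. The mean over these 10 markers lay between 0.69 and 1.03 in exposed and between 0.16 and 0.92 in control mice. Sinusoidal endothelium markers had 0 of 12 past an unadjusted p of 0.05, 11 of 12 positive and a median of 0.20, with Stab1 at 0.31 ± 0.16 and Tek at 0.30 ± 0.18, and mean levels of 2.74 to 3.09 in exposed and 2.16 to 3.20 in control mice. The lowest control in both lists was 595, without which the stellate median was 0.12, and the part of cell composition in the differences of metabolic genes was not tested. Bile duct markers had 1 of 6 lower, the transcription factor Sox9, at -1.38, -1.14, -1.12, -1.31 and -1.26 in the exposed mice and -0.96, -0.89, -0.45, -0.45 and -0.53 in the controls. Its groups did not overlap, at -0.60 ± 0.16 (adjusted p = 0.159), and Spp1 (osteopontin) stood at -0.30 ± 0.20.

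Kupffer cell and macrophage markers had 0 of 11 in either direction (median 0.02; Cd163 at 0.69 ± 0.34, Vsig4 at 0.27 ± 0.31). Neutrophil markers had 0 of 4 (median 0.06; S100a8 at 0.22 ± 0.13, S100a9 at 0.54 ± 0.35), with 7 of 11 markers on the array below the level for testing and Elane above background on none of the 10 arrays. T and NK cell markers had 0 of 8 (Cd3e at -0.52 ± 0.33, Klrb1c at 0.18 ± 0.11) and B cell markers 0 of 4 (Cd79b at -0.13 ± 0.13, Ms4a1 at -0.13 ± 0.16). Erythroid markers had 1 higher and 1 lower of 4, Klf1 at 0.54 ± 0.18 and Slc4a1 at -0.36 ± 0.13. The mean of hepatocyte markers lay between 5.29 and 6.02 in exposed and 5.30 and 6.32 in control mice, with 0 of 8 past that level, Alb as above and Apoa1 at -0.46 ± 0.24. Tissues outside the liver gave little signal. The tested markers were 3 of 10 for pancreas (Cela1 at -0.22 ± 0.13, Cel at -0.02 ± 0.10), 2 of 8 for fat (Cidea at -0.10 ± 0.11, Fabp4 at 0.02 ± 0.20) and 2 of 7 for lung epithelium (Scgb1a1 at 0.11 ± 0.14, Sftpd at -0.08 ± 0.27), none past an unadjusted p of 0.05.

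The difference between these exposed and control mice was also set against that of each other pair of runs, by the contrast of both differences. No probe passed in either case (0 of 23406 each), while 1973 (8.43%) against exposed 176 to 180 and their controls and 1052 (4.49%) against exposed 193 to 197 and theirs had an unadjusted p under 0.05. In those pairs themselves 56 probes (0.239%) and 0 probes passed, and 11.9% and 6.7% had an unadjusted p under 0.05. Within treatments, 7 probes (0.0299%) separated controls 595 to 600 from the other controls and 16 (0.0684%) separated exposed 212 to 216 from the other exposed mice. Cyp2b10 fell in both, by 1.58 (SE 0.26) and by 1.30 (SE 0.26), and Raet1e, a ligand of the killer cell receptor NKG2D, rose in both, by 0.72 ± 0.13 and 0.67 ± 0.13. In the controls the lipase Lpl fell by 1.04 (SE 0.18). In the exposed mice Myc fell by 1.08 (SE 0.19), Lcn2 fell by 1.92 (SE 0.37) and Derl3, of protein degradation in the endoplasmic reticulum, fell by 1.54 (SE 0.30). These contrasts take the mean of the other runs, which differ. The means of Lcn2, Derl3 and Cyp2b10 were 3.64, 1.34 and 5.96 in exposed 176 to 180. They were 0.56, -0.71 and 3.64 in exposed 193 to 197, closer to the 0.17, -1.23 and 3.44 of exposed 212 to 216. Myc was lower than in both other runs (-3.52 against -2.27 and -2.55).

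The reference RNA in Cy3, which was the same on all arrays, was tested between the same arrays. It does not measure an effect of position on Cy5 or on the ratio. None of 23406 probes passed in Cy3 between the arrays of these exposed and control mice by limma, 928 (3.96%) had an unadjusted p under 0.05, and for 0.457% the groups did not overlap, against 1.98% for the log ratios.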

How the data were processed

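Liver RNA (Cy5) and a common reference RNA (Cy3) were hybridised to 2-colour Agilent arrays, 1 per mouse. The deposited scanner files hold spot intensity values in both dyes, made by the authors with Agilent Feature Extraction 10.7.3.1 (25 arrays) or 10.1.1.1 (5 arrays; exposed 215 among the 10), per the file headers. The deposited value table holds log2 ratios, of the same direction as Cy5 over Cy3 with column medians between -0.044 and -0.0186. Each of its 30 columns correlated best with its own array (0.992 to 0.999), so its scale, direction and near-centring were read from that match. It was used only as an alternative.

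Intensities were background-corrected (normexp, offset 50) and loess-normalised within arrays in limma 3.58.1 under R 4.3.3, with statmod 1.5.0. Control spots and outlier spots were left out, which set 384 probe values missing on the 10 arrays, and repeated spots were averaged. A gene's value is its tested probe of highest mean Cy5. The fit held all 30 arrays in 6 group means with slide as a random block (correlation 0.145) and Benjamini-Hochberg adjustment over all tested probes at 0.05. The 5 arrays a group limit the precision, and p-values rest on the spread between mice within the 6 groups, pooled over all 30 arrays. Gene symbols came from matching the transcript named for each probe to RefSeq genes, which gave a symbol to 24375 of 41174 probes. Between design versions 3169 spot names differ.

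The comparison, its gene lists and the genes named were chosen with earlier results of these data known. The rule for named genes was those past the threshold, both clock arms, and the 2 members of smallest p of each other list. Chosen after their values were seen were Tmem45a, Pcsk4, Tmem263, C2cd4b, Coq10b, Rgs16, Usp2, Lonrf3, Oasl1, Zbp1, Rsad2, Ifit3, Isg15, Stat2, Irf9, Bst2, Psmb8, Msmo1, Cyp51, Hmgcs1, Srebf2, Hspa5, Manf, Creld2, Herpud1, Pdia4, Myc, Jun, Ulk1, Wipi1, Gabarapl1, Lrat, Pdgfrb, Cyp2c54, Cyp2c38, Cyp2c39, Cyp2b10, Cebpb, Nfkbia, Dgat1, Foxo1, Mt1, Mt2, Saa1, Saa2, Saa3, Lcn2, Cyp7a1, Ppargc1a, Acot1, Cpt1a, Ppargc1b, Npr2, Raet1e, Lpl and Derl3. Some genes are not reported here and were left out of the lists. The contrasts of each group with the other runs of its own treatment were added after seeing the data. Alternatives changed the background correction, normalisation, filter, block, controls and animals. Only the limma fit was tested on simulated data. These were made as log ratios, so the steps before the fit were not tested.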

Additional observations from a re-analysis of the deposited data

Results flagged for a closer look

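In each group of 5, an animal stood apart from the other 4 for 18 of 304 gene and group combinations (152 named genes in 2 groups), 7 in exposed and 11 in control mice. Chance flags about 1 in 20 groups. Control 595 accounts for 5 of them, and exposed 216 and controls 596 and 598 for 3 each.

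Exposed 216 stood apart for Dbp at -0.49 (the other exposed mice 0.92 to 1.35), Nfil3 at 0.62 (-0.54 to -0.22) and Bmp6 at 0.76 (1.12 to 1.24). Exposed 214 did so for Stard4 at 2.94 and Gadd45a at -0.88, exposed 215 for Crp at 3.52, and exposed 212 for Creld2 at -0.61. Control 595 stood apart for Slco1a4 at 3.75, Clock at 0.45, S100a8 at 0.03, Gadd45a at -0.57 and Lcn2 at 0.36. Control 596 did so for Creld2 at -1.50, Bnip3 at -1.04 and Gclm at 1.67, and control 598 for Hlf at 0.73, Tk1 at -0.56 and Cd79b at -2.35.

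Myc was lower in every exposed mouse than in every control here, by -0.47 on the log2 scale, and higher in every exposed mouse of another run. The limma test of the difference between runs gave adjusted p values of 0.212 against exposed 176 to 180 and their controls and 0.629 against exposed 193 to 197 and theirs.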

How the results depend on the processing

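The count of 2 probes past the threshold became 4 with no background correction, 9 with processed signals, 0 with median centring in place of loess (977 at an unadjusted limma p under 0.05), 0 with no slide block (1996), 129 with only the 10 arrays, 1 with only the 4 shared slides, 155 with array weights and 0 without arrays of the older software (2116). With other controls it was 33 (mean of 3 runs), 29 (547 to 552) and 30 (570 to 575). Leaving out 1 animal gave 0 to 66. The contrast with the first pair of runs gave 1 probe with the deposited value table, and that with the second gave 0 to 4 when 1 animal was left out.

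Of 3632 values of 152 named genes, 3492 kept direction and side of the threshold, 71 came to pass it, 19 lost it and 50 changed sign. With processed signals the sign changed for Crp (-0.40), Slco1a4 (-0.46), Gins3 (0.00), Ccl3 (0.03), Cd163 (-0.28), Vsig4 (-0.44), Cidea (0.08), Fabp4 (-0.06), S100a9 (-0.37), Bmp6 (-0.13), Nr1i2 (-0.10), Cyp2c39 (-0.30) and Cyp7a1 (-0.27). With array weights it changed for Rora (0.02), Fabp4 (-0.01), Saa3 (0.09) and Cyp7a1 (-0.02), and without older-software arrays for Rora (0.03), Fabp4 (-0.01) and Saa3 (0.10). With the value table this held for Fabp4 (-0.02) and Cel (0.00), with no background correction for Cel (0.01), and on the 4 shared slides for Fabp4 (-0.03), Cel (0.01), Saa2 (0.05) and Saa3 (0.07). A fixed slide block turned Saa3 (0.02) and Cyp7a1 (-0.04), and the fit of 10 arrays Saa3 (0.00). With 1 animal left out the sign of Rora (-0.09 to 0.04), Vsig4 (-0.04 to 0.50), Fabp4 (-0.14 to 0.13), Sftpd (-0.30 to 0.08), Cel (-0.08 to 0.03), Saa3 (-0.33 to 0.12), Lcn2 (-0.28 to 0.34) and Cyp7a1 (-0.40 to 0.58) changed.

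The groups share no replicate numbers. Pairing by slide gave 2 probes with slide as a fixed block and 1 on the 4 shared slides. The cause of these shifts was not tested. Of 162 list counts, 28 moved by over 1.5 times.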
